A study of Mus musculus with 33 samples.

Results

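Histone deacetylases and the subunits of the corepressor complexes that carry them were described across 4 mouse mammary RNA-seq experiments. The set was defined by gene symbol and role, with earlier results of these data known, and holds 41 of the 30184 gene symbols listed in any of the 4 expression tables. It contains 11 deacetylases (Hdac1 to Hdac11), 4 subunits of the NCoR complex, 9 of NuRD, 2 histone chaperones that NuRD and SIN3 share, 6 SIN3 subunits, 6 CoREST subunits, and a last group of Ctbp1, Ctbp2 and the adaptor Zfpm1. All 41 symbols were found in the CRISPR guide and organoid tables and 40 in the inhibitor and tumor tables, where Rcor3 was not analysed.

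Classical deacetylases remove acetyl groups from histone tails through a zinc-dependent active site, which favours closed chromatin and low transcription. Hdac1 and Hdac2 work inside NuRD, SIN3 and CoREST, Hdac3 is the enzyme of the NCoR complex, and DNA-binding repressors bring these complexes to their target genes. TRPS1, the GATA-type zinc finger protein studied here, is such a repressor and is expressed in mammary epithelium. Trichostatin A (TSA) is a hydroxamate that blocks the zinc-dependent enzymes.

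The first experiment treated HC11 cells, a mouse mammary epithelial cell line, with 300 nM TSA or its solvent DMSO for 24 h (3 libraries each). In the second, HC11 cells received either the guide sgTrps1 #1 or the control guide sgScr #1 (2 libraries each, 1 guide per group). The third used primary mammary organoids in matrigel, transduced with AdCre (an adenovirus carrying Cre recombinase) and harvested after 14 or 28 days, with Trps1 intact (Cdh1F/F;Trps1+/+) or floxed, the latter beside 2 floxed Cdh1 alleles (Cdh1F/F;Trps1F/F) or 1 (Cdh1+/F;Trps1F/F), with 2 libraries per genotype and day. Organoid headers are shared within 4 of the 6 groups, so the first and second library there are only names. Every organoid group thus carried at least 1 floxed Cdh1 allele and received Cre, so none represents untouched tissue. The fourth compared 8 tumors from 6 WAP-cre;Cdh1F/F;Trps1F/F mice with 3 tumors from 3 WAP-cre;Cdh1F/F;Trps1+/+ mice. All tumor-bearing mice carried floxed Cdh1 and a Cre driven by the promoter of a milk protein gene, and the labels split the Trps1F/F tumors into subgroup 1 (4 tumors, 3 mice), subgroup 2 (2 tumors, 2 mice) and subgroup 3 (2 tumors, 2 mice). A single mouse gave tumors to both subgroups 1 and 3. Nothing in the labels says that cell or organoid libraries of a group came from separate cultures, so p-values measure the spread between these libraries, which may be technical. Values are the authors' normalized counts, and differences are on the log2(normalized count + 1) scale.

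Total reads per library ran from 14858175 to 38773075. Trps1 fell by 3.05 on the log2 scale with TSA, and in the organoids it was listed at 11628 to 15949 in Trps1+/+ libraries. It was listed at 700 to 1050 in Cdh1+/F;Trps1F/F and at 2123 to 2676 in Cdh1F/F;Trps1F/F libraries. The 2 floxed Trps1 genotypes thus differed in Trps1 RNA (1.49 higher in Cdh1F/F;Trps1F/F, limma adjusted p = 3.82e-07). The libraries labelled sgTrps1 held 14786 and 15418 Trps1 counts against 14212 and 15186 with sgScr, so the transcript level did not check that label (a cut in the coding sequence need not lower the RNA). Among tumors, Trps1 spanned 954 to 6353 in Trps1F/F and 2821 to 7878 in Trps1+/+, and the groups overlapped. Cdh1 RNA did not follow the Cdh1 labels in the organoids. It was 8413 to 11729 in libraries labelled Cdh1+/F;Trps1F/F, 8629 to 12204 in those labelled Cdh1F/F;Trps1+/+ and highest, at 12253 to 15724, in those labelled Cdh1F/F;Trps1F/F (0.43 above Cdh1+/F;Trps1F/F, limma adjusted p = 4.40e-05). Luminal keratin and adhesion markers were present in HC11 cells and organoids, whereas markers of T and B cells stayed at or near 0 there. In the organoids the summed level of 6 fibroblast markers differed widely, from 7844 to 20866 in Cdh1F/F;Trps1F/F, from 24422 to 94370 in Cdh1F/F;Trps1+/+ and from 345876 to 730075 in Cdh1+/F;Trps1F/F libraries.

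Promoters of 4 members are shown because these genes moved in several of the comparisons: Zfpm1 and Hdac6 were higher and Ctbp1 and Sap30 lower with TSA. Each sequence is the 250 bases upstream of a RefSeq start (GRCm38.p6), read on the strand of the gene. Capitals mark the GC box GGGCGG and the CCAAT box on either strand. The windows lie at chr8:122281891-122282140 (plus strand) for Zfpm1, chrX:7947890-7948139 (minus) for Hdac6, chr5:33275005-33275254 (minus) for Ctbp1 and chr8:57487861-57488110 (minus) for Sap30.
Zfpm1: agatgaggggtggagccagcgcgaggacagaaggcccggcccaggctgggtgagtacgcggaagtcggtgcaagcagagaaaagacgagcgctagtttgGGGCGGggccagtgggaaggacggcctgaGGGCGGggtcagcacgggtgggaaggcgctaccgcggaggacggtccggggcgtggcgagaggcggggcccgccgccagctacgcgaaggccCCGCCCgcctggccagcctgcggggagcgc
Hdac6: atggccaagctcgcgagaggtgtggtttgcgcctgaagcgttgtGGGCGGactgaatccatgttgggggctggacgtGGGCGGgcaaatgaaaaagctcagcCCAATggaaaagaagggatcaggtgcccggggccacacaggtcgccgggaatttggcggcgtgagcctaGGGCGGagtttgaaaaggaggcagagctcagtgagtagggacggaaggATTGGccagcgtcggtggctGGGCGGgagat
Ctbp1: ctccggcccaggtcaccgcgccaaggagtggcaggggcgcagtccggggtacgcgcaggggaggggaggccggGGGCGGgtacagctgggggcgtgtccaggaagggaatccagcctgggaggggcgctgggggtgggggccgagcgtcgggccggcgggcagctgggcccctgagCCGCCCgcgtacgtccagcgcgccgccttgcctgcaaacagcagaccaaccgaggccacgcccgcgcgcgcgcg
Sap30: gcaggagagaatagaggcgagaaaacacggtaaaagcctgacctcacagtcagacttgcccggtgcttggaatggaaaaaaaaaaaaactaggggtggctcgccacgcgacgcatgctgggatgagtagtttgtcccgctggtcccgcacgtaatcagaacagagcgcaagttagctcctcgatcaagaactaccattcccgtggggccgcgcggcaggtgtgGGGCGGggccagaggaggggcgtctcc
All 4 windows are rich in CpG, with 28 CpG in Zfpm1, 17 in Hdac6, 31 in Ctbp1 and 18 in Sap30 against a median of 6 over 32851 promoter windows. The median of the 47 member windows was 19, so this is common to the set. Hdac6 has 4 GC boxes and 2 CCAAT boxes, Zfpm1 3 GC boxes, Ctbp1 2 and Sap30 1. None of the 4 holds the letters GATAA, the core that GATA factors read, or TATAAA, the TATA box. Over the 34 members with an entry, 34 of 47 windows held GGGCGG, against 32.74% of all windows, and 22 of 47 held CCAAT, against 33.85%. GATAA was in 8 of 47 member windows, against 22.58%, and TATAAA in 6, against 12.37%. These are letter matches in a short window and not measured binding sites. The Sap30 window also holds the first exon of the noncoding gene 2500002B13Rik, which runs the other way.

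Levels of different members can be set side by side only per kilobase of exon. In DMSO-treated HC11 cells Rbbp7, a histone chaperone, led with 2227 normalized counts per kb, followed by the NuRD subunit Mbd3 with 1787 and the SIN3 subunit Sap30 with 1597. Among the deacetylases there, Hdac2 stood at 1085 per kb, Hdac3 at 561, Hdac1 at 559, Hdac8 at 48.8 and Hdac11 at 19.2. The Hdac3 and Hdac1 levels overlapped between libraries. The other HC11 control group, sgScr, had a different order: Hdac11 was the highest deacetylase there at 737 per kb, above Hdac2 at 594. Why the place of Hdac11 differed between these HC11 controls was not tested. In the Cdh1F/F;Trps1+/+ organoids at day 14 the chromatin remodeller Chd4 was highest at 1264 per kb, and the deacetylases ran from Hdac3 at 631 and Hdac2 at 516 down to Hdac9 at 6.61. In the Trps1+/+ tumors Chd4 again led with 1239 per kb, and Hdac9 was lowest at 19.7. Hdac9 had 0 to 2.26 normalized counts in the HC11 libraries, no more than 3 reads in any of them, and was the only member left out by the filter on low values in the HC11 tables.

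The TSA comparison asks how HC11 cells changed when deacetylase activity was blocked. Members moved in both directions with TSA: of 39 members tested, 14 were higher and 23 lower at an adjusted p below 0.05, while 43.6% of all 13044 genes tested were higher and 41.6% lower. Of these, 8 higher and 12 lower members changed 2-fold or more (all genes: 21.5% and 16.3%). The median member difference was -0.65 and that of all genes 0.02. The groups did not overlap for 37 of the 39 (86.2% of all genes). The 2 members not called were the NuRD linker Gatad2a and the CoREST scaffold Rcor1.

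The 4 class I enzymes split. Hdac1 had 2038, 1920.1 and 1819.9 normalized counts with DMSO and 4505, 4458 and 4636 with TSA (log2 difference 1.24, SE 0.0447, adjusted p = 1.44e-10). Hdac2, its close paralog, had 4817, 4954 and 4794 with DMSO and 3086, 3056 and 3085 with TSA (log2 difference -0.66, SE 0.0338, adjusted p = 3.00e-09). Every TSA library thus lay above the DMSO libraries for Hdac1 and below them for Hdac2. Hdac3 rose slightly, from 2265, 2280.4 and 2276 to 2685, 2622 and 2571 (log2 difference 0.21, SE 0.0357, adjusted p = 0.000173). Hdac8, which acts outside the large complexes, fell from 253, 238 and 217 to 123, 137 and 142 (log2 difference -0.81, SE 0.104, adjusted p = 1.43e-05). Per kilobase, Hdac1 reached 1316 with TSA and passed Hdac2 at 688, the reverse of their order in DMSO.

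Hdac11, the only class IV deacetylase, rose more than any other member. It had 80.8, 72.7 and 67.8 counts with DMSO and 534, 595 and 529.7 with TSA, a 7.42-fold rise (log2 difference 2.89, SE 0.1, adjusted p = 9.86e-11). The groups were far apart, although exons of unnamed genes on the other strand overlap 17.9% of its exon length and whether the counting used strand is not stated. Hdac5, a class IIa enzyme that shuttles between cytoplasm and nucleus, went from 668, 662 and 699 to 2015, 2066 and 2033 (log2 difference 1.59, SE 0.043, adjusted p = 1.32e-11). Hdac6, the class IIb enzyme that deacetylates tubulin and whose promoter is printed above, went from 904, 818 and 846 to 2436, 2489.5 and 2374 (log2 difference 1.51, SE 0.0471, adjusted p = 4.17e-11). Hdac7, another class IIa enzyme, went the other way, from 677, 824 and 886 to 145, 152 and 116 (log2 difference -2.53, SE 0.12, adjusted p = 1.55e-09). Hdac4 and the polyamine deacetylase Hdac10 also fell, by 0.85 and 0.96. Each class with more than 1 tested enzyme therefore had members that rose and members that fell.

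NuRD joins a chromatin remodeller to Hdac1 and Hdac2. Of its 9 members, 8 fell and none rose, against 41.6% and 43.6% of all genes. Mta3, one of 3 alternative scaffolds, dropped from 1130.4, 1229 and 1260.2 to 157, 146 and 148, 7.98-fold (log2 difference -3.00, SE 0.069, adjusted p = 4.07e-12). The remodeller Chd3 dropped from 6722, 7016 and 7241 to 1275, 1313 and 1139 (log2 difference -2.49, SE 0.0534, adjusted p = 2.29e-12). Its paralog Chd4 fell by only 0.23. Mbd3 dropped from 3308, 3511 and 3833 to 848, 839 and 840 (log2 difference -2.07, SE 0.0518, adjusted p = 7.28e-12), and Mta1, Mta2 and the methyl-CpG binder Mbd2 fell by 1.27, 1.03 and 0.84. Summed normalized counts of the 9 members went from 38899 to 42408 with DMSO down to 24677 to 24916 with TSA. Of the 2 shared chaperones, Rbbp7 fell by 1.25. The smaller drop of Rbbp4 (-0.16, adjusted p = 0.0213) turned to 0.028 (adjusted p = 0.634) under quantile normalization and was the only called member not called in all 12 alternatives.

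In NCoR, 3 of 4 subunits fell (all genes: 41.6%). The scaffold Ncor1 went from 8668, 9054 and 9133 to 3442, 3479 and 3548 (log2 difference -1.36, SE 0.0359, adjusted p = 1.10e-11), and Tbl1x, which helps exchange corepressors for coactivators, from 5429, 5149 and 5171 to 1793, 1721 and 1822 (log2 difference -1.56, SE 0.0391, adjusted p = 7.36e-12). Tbl1xr1, its paralog, fell by 1.20. Gps2, a small subunit, rose by 0.86. All 3 falling subunits had separate groups, and the sum over the 4 went from 16629 to 16666 down to 6962 to 7132.

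SIN3 moved upward in 5 of 6 members (all genes: 43.6%). Sap18 rose 3.46-fold, from 916, 1000.3 and 996 to 3296, 3308 and 3467 (log2 difference 1.79, SE 0.0459, adjusted p = 8.87e-12), with the reservation that the near-copy Sap18b can share its reads. Sap130, a large SIN3 subunit, went from 1457, 1619 and 1596 to 3519, 3547 and 3472 (log2 difference 1.17, SE 0.0449, adjusted p = 2.25e-10). The scaffolds Sin3a and Sin3b and the subunit Suds3 rose by 0.48, 0.26 and 0.24. Sap30 alone fell, from 1805, 1866 and 1971 to 951, 1014 and 1055 (log2 difference -0.90, SE 0.0513, adjusted p = 7.91e-09). The summed SIN3 level thus rose from 12676 to 12985 with DMSO to 18651 to 18689 with TSA.

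CoREST was mixed: the scaffold Rcor2 rose from 159.6, 189 and 155 to 352, 371 and 330.1 (log2 difference 1.06, SE 0.0983, adjusted p = 7.14e-07) and Hmg20b rose by 0.41, while the histone demethylase Kdm1a and the histone reader Phf21a fell by 0.65 and 0.85. Both CtBP corepressors dropped. Ctbp1 went from 3920.2, 4063 and 4312 to 1234, 1326 and 1310.3 (log2 difference -1.67, SE 0.0461, adjusted p = 1.58e-11), and Ctbp2 from 1332, 1377 and 1399 to 289, 346 and 372 (log2 difference -2.03, SE 0.0818, adjusted p = 3.47e-10). Zfpm1, the adaptor through which GATA factors contact NuRD, went from 88, 106 and 125 to 787, 754 and 810.3, a 7.37-fold rise (log2 difference 2.88, SE 0.114, adjusted p = 3.04e-10). It therefore rose in cells in which most NuRD subunits fell.

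**Figure D1:**
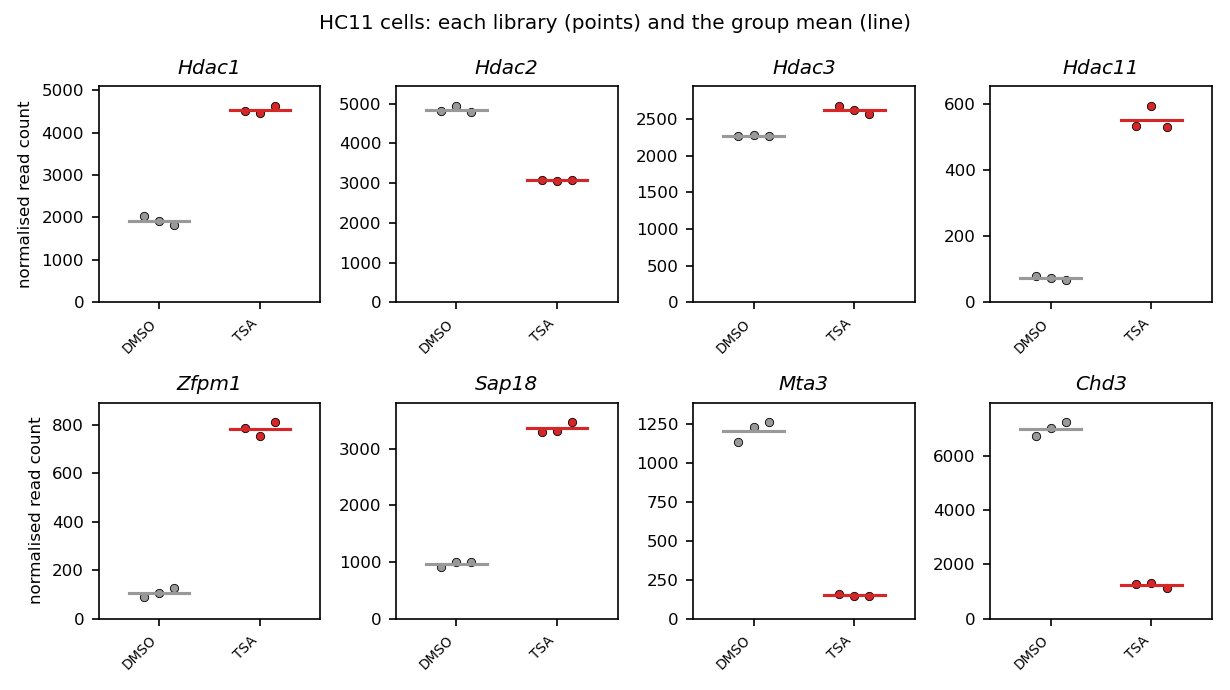
Normalized counts (linear axis from 0) of 8 members in each HC11 library, 3 with DMSO and 3 with TSA; each point is 1 library and each line a group mean. Hdac1, Hdac11, Zfpm1 and Sap18 lie higher with TSA, Hdac2, Mta3 and Chd3 lie lower, and Hdac3 shifts only from 2265 to 2280 up to 2571 to 2685.

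Related genes outside the set are given by their counts, which are read against the all-gene shares of 43.6% higher and 41.6% lower. Of 14 further corepressor subunits tested, 8 rose and 6 fell, with Cdk2ap1, a small NuRD-associated protein, at -3.04 and the SIN3-associated Ing1 and Brms1 at 0.81 and 0.80. Of 7 sirtuins, the NAD-dependent deacetylases that TSA does not target, 4 rose and 2 fell. Of 12 acetyltransferases, the opposing enzymes, 2 rose and 9 fell, among them Kat2b at -1.96 and Ep300 at -1.30. The 6 basal and myoepithelial markers summed to 88059.5 to 99260.1 with DMSO and 23610.1 to 24480.5 with TSA, and 5 of the 6 fell, while the luminal sum was 28410 to 29258 against 27704 to 28715. The part of that shift in the members' changes was not tested. In bulk RNA, fewer cells of a type and less RNA per cell cannot be told apart.

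The guide comparison asks what changed in HC11 cells that received a guide against Trps1. Among 40 members tested, 16 were higher and 14 lower in the libraries labelled sgTrps1, while 34.6% of 12562 genes were higher and 32.4% lower. No member changed 2-fold, against 13.9% of all genes, and the groups did not overlap for 39 of 40 members (83.5% of all genes). The median member difference was 0.13 and that of all genes 0.02. Of the 30 calls, 20 held in all 11 alternatives, and the lower count fell to 9 when either sgTrps1 library was left out.

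Of the 4 class I enzymes, 3 were higher (all genes: 34.6%). Hdac2 had 2729 and 2584 counts with sgScr and 4294 and 4508 with sgTrps1 (log2 difference 0.73, SE 0.0602, adjusted p = 1.60e-07). Hdac8 had 356 and 335 and 592 and 567 (log2 difference 0.74, SE 0.0769, adjusted p = 1.41e-06), and Hdac1 969 and 829.4 and 1262 and 1349 (log2 difference 0.54, SE 0.0758, adjusted p = 2.54e-05). No sgTrps1 library overlapped the sgScr libraries for these genes. Hdac3 did not pass the test, with 1412 and 1236 against 1468 and 1443 (log2 difference 0.14, 95% interval -0.01 to 0.29, adjusted p = 0.0873), although without the first sgScr library its adjusted p was 0.00257. Of the class IIa enzymes, Hdac4 was the most changed member downward apart from Rcor2, with 5202 and 5729.6 and 2938 and 2885 (log2 difference -0.91, SE 0.0636, adjusted p = 3.18e-08); exons on the other strand overlap 22.4% of its length. Hdac11 was higher by 0.34 (adjusted p = 0.00016).

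Within the complexes, 5 of 6 SIN3 members were higher and none lower, against 34.6% and 32.4% of all genes. Sap30 had 1467 and 1401 with sgScr and 2257 and 2271 with sgTrps1 (log2 difference 0.66, SE 0.0577, adjusted p = 2.77e-07), and Sin3a had 1527 and 1618 and 2501 and 2443 (log2 difference 0.65, SE 0.0586, adjusted p = 3.52e-07). Sap18 and Suds3 were higher by 0.59 and 0.37, and Sin3b by 0.23, a call lost without the first sgTrps1 library (adjusted p = 0.0668). NuRD leaned the other way, with 5 of 9 members lower and 2 higher, against 32.4% and 34.6% of all genes. Mta1 had 2979.7 and 2801 and 1866 and 1826 (log2 difference -0.65, SE 0.0587, adjusted p = 3.97e-07), Chd3 had 3367 and 3617 and 2434 and 2413 (log2 difference -0.53, SE 0.0595, adjusted p = 3.42e-06), and Gatad2a was lower by 0.46. The higher NuRD members were Mbd2 at 0.23 and Mbd3 at 0.19, and both calls were lost without the second sgTrps1 library (adjusted p = 0.0509 and 0.0944), that of Mbd3 also without the first (0.136). The chaperone Rbbp4 was higher by 0.44. In CoREST, Rcor2 had 326 and 279 and 162 and 149.9 (log2 difference -0.95, SE 0.106, adjusted p = 3.10e-06), the largest member difference here, while Hmg20b was higher by 0.62. The NCoR subunits Tbl1x and Tbl1xr1 were lower by 0.20 and 0.18, and both calls were lost without either sgTrps1 library (adjusted p = 0.0799 to 0.291), that of Tbl1xr1 also without the second sgScr library (0.361). Basal markers summed to 20241 to 23155 with sgScr and 72541 to 73196 with sgTrps1, and their part in these differences was not tested.

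The TSA and guide experiments share no library, so their calls can be counted against each other. Of 39 members tested in both, 28 were called in both and 20 of those (71.4%) in the same direction, 9 higher and 11 lower. Over all genes, 6503 of 11088 tested in both were called in both, and 53.1% of those had the same direction. The 8 members with opposite directions were Rcor2 and Zfpm1, higher with TSA and lower with sgTrps1, and Hdac2, Hdac8, Mbd2, Mbd3, Rbbp4 and Sap30, lower with TSA and higher with sgTrps1. Hdac1, Hdac11, Sin3a and Sap18 were higher in both, whereas Hdac4, Chd3, Mta1 and Mta3 were lower in both.

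**Figure D2:**
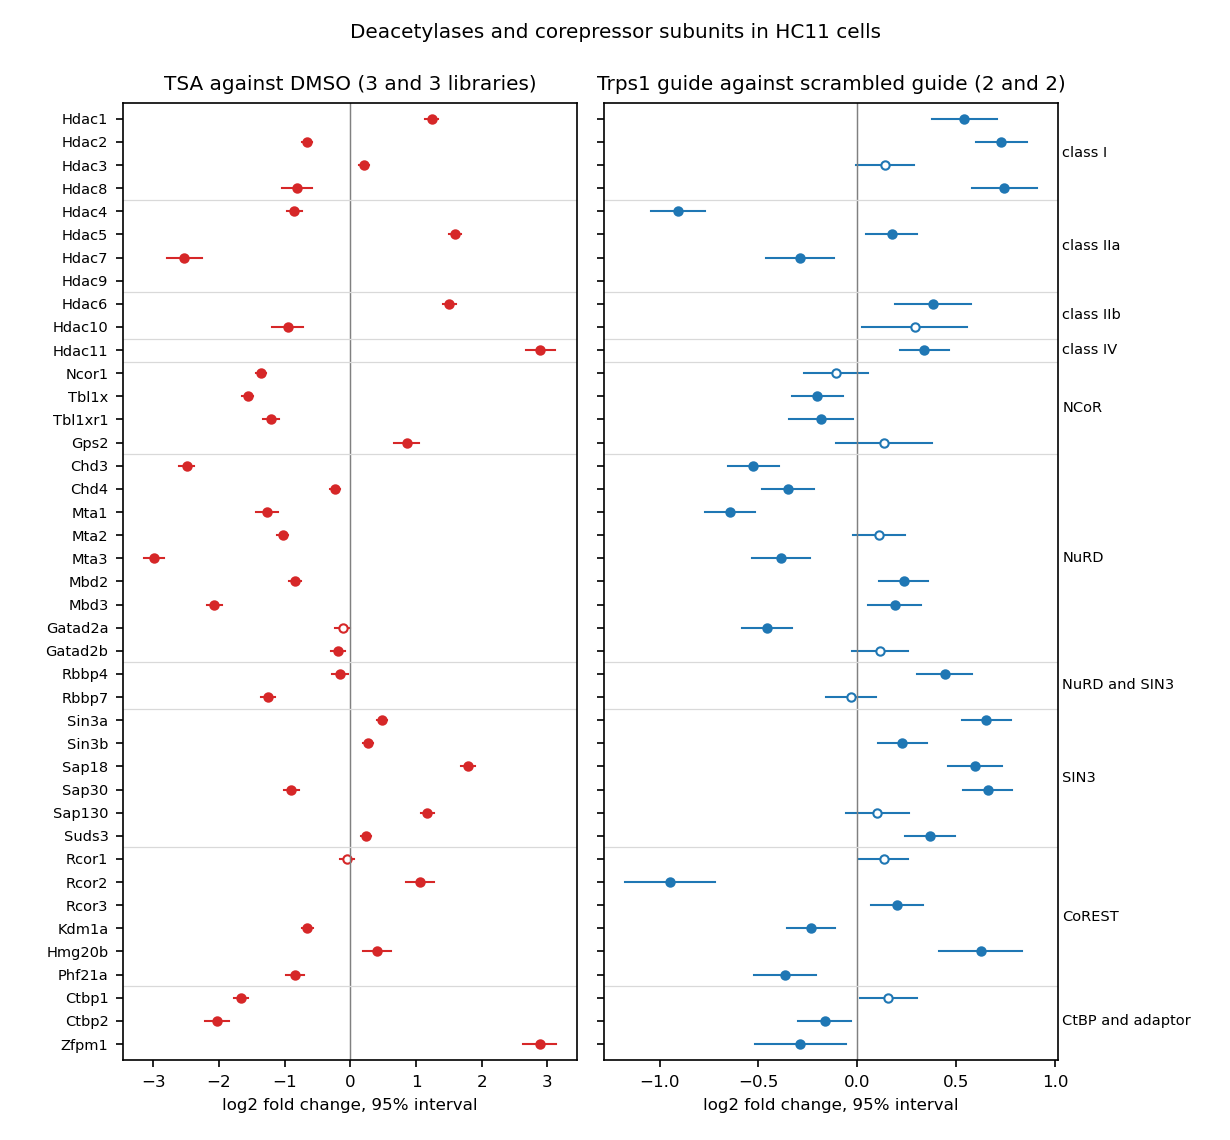
Log2 differences with 95% intervals for each member tested, grouped by role, for TSA against DMSO (left) and sgTrps1 against sgScr (right); filled points have an adjusted p below 0.05. NuRD lies left of 0 with TSA (8 of 9 members lower, all genes 41.6%). SIN3 lies mostly right of 0 in both panels (5 of 6 members higher, all genes 43.6% with TSA and 34.6% with sgTrps1).

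The organoid comparisons ask how each of the Trps1F/F genotypes differed from Cdh1F/F;Trps1+/+ organoids after AdCre, at each day. No Cdh1+/F;Trps1+/+ organoids were among the samples. The Cdh1+/F;Trps1F/F comparisons therefore change the Cdh1 label together with Trps1, and the parts of each cannot be told apart there. Both Trps1F/F genotypes were set against the same Cdh1F/F;Trps1+/+ libraries, so these comparisons share their controls and their values are given side by side. In Cdh1F/F;Trps1F/F organoids at day 14, 15 of 41 members were higher and 2 lower, against 14.5% and 17.9% of 15873 genes. At day 28, 12 were higher and 5 lower, against 19.9% and 23.4%. In Cdh1+/F;Trps1F/F organoids 10 were higher and 2 lower at day 14, against 18.9% and 17.4%, and 6 were higher and 14 lower at day 28, against 28.7% and 24.6%. The medians of the members were 0.18, 0.07, 0.07 and -0.11 in that order, and those of all genes -0.01, -0.04, 0.02 and 0.03. Under quantile normalization the higher share of all called genes in the last comparison went from 53.8% to 41.8%, with the median of all genes at -0.10. In Cdh1F/F;Trps1F/F the groups did not overlap for 32 of 41 members at either day, against 69.9% and 70.9% of all genes. Chd4, Gatad2b, Mta1, Rcor3, Sap18, Suds3 and Tbl1x were called in none of the 4.

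Hdac3 was called higher in all 4 comparisons, and no other member was. At day 14 it had 2603 and 2515 normalized counts in Cdh1F/F;Trps1+/+, 4420.5 and 4671 in Cdh1+/F;Trps1F/F and 4252 and 4217 in Cdh1F/F;Trps1F/F. At day 28 the corresponding values were 2646 and 2592, then 3406 and 3486, then 4232 and 4194. Each of the 8 Trps1F/F libraries was above each of the 4 Trps1+/+ libraries. In Cdh1F/F;Trps1F/F the log2 difference was 0.73 at day 14 (SE 0.0659, adjusted p = 4.40e-06) and 0.69 at day 28 (SE 0.0659, adjusted p = 4.20e-06). In Cdh1+/F;Trps1F/F, where the Cdh1 label differs from the control as well, it was 0.83 (limma adjusted p = 8.15e-07) and 0.40 (limma adjusted p = 0.000248). All 4 calls held in every one of the 10 alternatives run for each. Beside this, 8 luminal markers summed to 58545 to 68247 in Trps1+/+, 73854 to 76457 in Cdh1+/F;Trps1F/F and 101920 to 104256 in Cdh1F/F;Trps1F/F at day 14. At day 28 they summed to 63419 to 67860 in Trps1+/+, 40498 to 45941 in Cdh1+/F;Trps1F/F and 104635 to 105476 in Cdh1F/F;Trps1F/F. The luminal sum was thus above Trps1+/+ in 3 of these 4 comparisons and below it in Cdh1+/F;Trps1F/F at day 28. The fibroblast sum, given above, was lower than in Trps1+/+ in Cdh1F/F;Trps1F/F and higher in Cdh1+/F;Trps1F/F. The part of either in the Hdac3 values was not tested.

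The other class I enzymes did not move this way. Hdac1 and Hdac2 differed by 0.10 and -0.04 in Cdh1F/F;Trps1F/F at day 14 (adjusted p = 0.506 and 0.769), and Hdac8 by 0.12 (adjusted p = 0.531). At day 28 Hdac2 was higher by 0.40 (adjusted p = 0.00535), with 2326 and 2555 in Trps1+/+ and 2935 and 3514 in Trps1F/F, a call lost without the second Trps1F/F library (adjusted p = 0.0668). Hdac1 and Hdac8 there differed by 0.14 (adjusted p = 0.289) and -0.26 (adjusted p = 0.131). At day 14 in Cdh1+/F;Trps1F/F none of these 3 passed the test, with Hdac1 at -0.02 (adjusted p = 0.879), Hdac2 at -0.05 (adjusted p = 0.705) and Hdac8 at 0.23 (adjusted p = 0.205). At day 28 Hdac1 and Hdac8 were lower by 0.36 and 0.34 and Hdac2 higher by 0.25, with adjusted p of 0.00913, 0.0449 and 0.045. All 3 calls depended on single libraries. Hdac8 missed the threshold without any of the 4 (adjusted p = 0.0574 to 0.212), Hdac2 without the first Trps1+/+ or either Cdh1+/F;Trps1F/F library (0.0843 to 0.233), and Hdac1 without the second Trps1+/+ (0.0537) or the first Cdh1+/F;Trps1F/F library (0.114).

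Zfpm1 showed the largest rise in Cdh1F/F;Trps1F/F. At day 14 it had 208 and 230.3 in Cdh1F/F;Trps1+/+, 506 and 499.6 in Cdh1+/F;Trps1F/F and 781 and 691 in Cdh1F/F;Trps1F/F. At day 28 it had 299 and 415, 419 and 415 and 716 and 805. The Cdh1F/F;Trps1F/F libraries were the highest at each day, 3.34-fold above Trps1+/+ at day 14 (log2 difference 1.74, SE 0.141, adjusted p = 1.77e-06) and still higher at day 28 (log2 difference 1.10, SE 0.141, adjusted p = 4.33e-05). In Cdh1+/F;Trps1F/F the rise passed the test at day 14 (log2 difference 1.20, SE 0.141, adjusted p = 2.66e-05). At day 28 it did not, at 0.24 (adjusted p = 0.171), unless the second Trps1+/+ library was left out (0.48, adjusted p = 0.0117).

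Sap30 and Hdac9 separated the 2 Trps1F/F genotypes. Sap30 counts at day 14 were 420.4 and 377 in Cdh1F/F;Trps1+/+, 193 and 178 in Cdh1+/F;Trps1F/F and 272 and 249 in Cdh1F/F;Trps1F/F. At day 28 they were 439 and 609.9, 119 and 168 and 312 and 429. The lowest libraries were those of Cdh1+/F;Trps1F/F at both days, with a 3.65-fold drop at day 28 (log2 difference -1.87, SE 0.201, adjusted p = 5.89e-06) and a drop at day 14 (log2 difference -1.10, SE 0.201, adjusted p = 0.000909). In Cdh1F/F;Trps1F/F the day 14 drop (log2 difference -0.61, SE 0.201, adjusted p = 0.0336) was lost on leaving out any of the 4 libraries (adjusted p = 0.0689 to 0.177). At day 28 Sap30 differed by -0.50 (adjusted p = 0.061) and passed the test without the first Trps1+/+ library (adjusted p = 0.0202) or the second Trps1F/F library (adjusted p = 0.0254).

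Hdac9, a class IIa enzyme that binds MEF2 transcription factors, was the least abundant member per kilobase. Its counts at day 14 were 99.6 and 94.3 in Cdh1F/F;Trps1+/+, 102.6 and 112 in Cdh1+/F;Trps1F/F and 29.2 and 35.9 in Cdh1F/F;Trps1F/F. At day 28 they were 100 and 66, 203 and 174 and 38.2 and 40.4. Cdh1F/F;Trps1F/F was lowest at both days (log2 difference -1.55, SE 0.226, adjusted p = 0.000186 at day 14 and log2 difference -1.03, SE 0.226, adjusted p = 0.00265 at day 28). With only the 2 groups in the fit, the day 28 adjusted p was 0.0541. It rose in Cdh1+/F;Trps1F/F at day 28 (log2 difference 1.20, SE 0.226, adjusted p = 0.000638), but at day 14 its difference was 0.14 (adjusted p = 0.656). Beside this, 5 skeletal muscle markers summed to 501 to 2163 in Cdh1F/F;Trps1F/F, 3677 to 7659 in Cdh1F/F;Trps1+/+ and 10019.5 to 38151 in Cdh1+/F;Trps1F/F, and the fibroblast sums followed the same order. Trps1 RNA also differed between the Trps1F/F genotypes, as given above. The part of the marker sums and of Trps1 RNA in the Hdac9 and Sap30 differences was not tested.

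Hdac7 was higher in both Trps1F/F genotypes at day 14. It had 1001 and 1195 in Cdh1F/F;Trps1+/+, 2205 and 1986 in Cdh1+/F;Trps1F/F (log2 difference 0.94, SE 0.105, adjusted p = 1.71e-05) and 1675 and 1714 in Cdh1F/F;Trps1F/F (log2 difference 0.63, SE 0.105, adjusted p = 0.000513). At day 28 it had 890.1 and 1030.5, 1859 and 1657 (log2 difference 0.87, SE 0.105, adjusted p = 1.60e-05) and 1109.8 and 1062, where the last difference was 0.18 (adjusted p = 0.184). Hdac6 was higher in both at day 14, by 0.72 and 0.43. At day 28 it was lower by 0.34 in Cdh1+/F;Trps1F/F and differed by 0.17 (adjusted p = 0.118) in Cdh1F/F;Trps1F/F. Hdac10 rose in Cdh1+/F;Trps1F/F at day 14 (by 0.63), where Hdac4 fell by 0.46.

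Among complex subunits, Tbl1xr1 and Rcor1 were higher in Cdh1F/F;Trps1F/F. Tbl1xr1 had 2129 and 1873 in Trps1+/+ and 2569.6 and 2757 in Trps1F/F at day 14 (log2 difference 0.41, SE 0.0907, adjusted p = 0.00351), then 2181 and 1981 and 2806 and 3051 at day 28 (log2 difference 0.49, SE 0.0907, adjusted p = 0.000778). Rcor1 had 3044 and 2769 and 3529 and 3517 at day 14 (log2 difference 0.28, SE 0.0736, adjusted p = 0.0109), then 2783 and 2721 and 3945 and 3913 at day 28 (log2 difference 0.51, SE 0.0736, adjusted p = 0.000114). The groups did not overlap at either day, but the day 14 Rcor1 call was lost without the second Trps1+/+ library (adjusted p = 0.0874) or either Trps1F/F library (0.0664 and 0.0585). Neither gene passed the test at either day in Cdh1+/F;Trps1F/F. NuRD in Cdh1F/F;Trps1F/F had 3 of 9 members higher at day 14, with Gatad2a at 0.35, and 2 at day 28, with Mbd2 at 0.52. None was lower, and the higher shares of all genes were 14.5% and 19.9%. In Cdh1+/F;Trps1F/F at day 28, 4 of 9 NuRD members were lower (all genes: 24.6%), with Mbd3 at -0.58 and Gatad2a at -0.43, and Mbd2 was higher at 0.43. Both CtBP genes were lower there, by 0.33 and 0.25, the second a call lost without the second Trps1+/+ (adjusted p = 0.115) or the first Cdh1+/F;Trps1F/F library (0.102).

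Several of these counts depended on single libraries. In Cdh1F/F;Trps1F/F at day 14 the number of higher members fell from 15 to 8 without the first Trps1+/+ library and to 7 without the first Trps1F/F library. At day 28 it fell from 12 to 7 without the second Trps1F/F library. In Cdh1+/F;Trps1F/F at day 28 the lower members fell from 14 to 6 without the second Trps1+/+ library and to 8 without the first Cdh1+/F;Trps1F/F library. Hdac3, Hdac6, Hdac7, Hdac9, Zfpm1, Tbl1xr1 and Gatad2a at day 14, and 11 of the 17 called members at day 28, held in every alternative in Cdh1F/F;Trps1F/F.

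**Figure D3:**
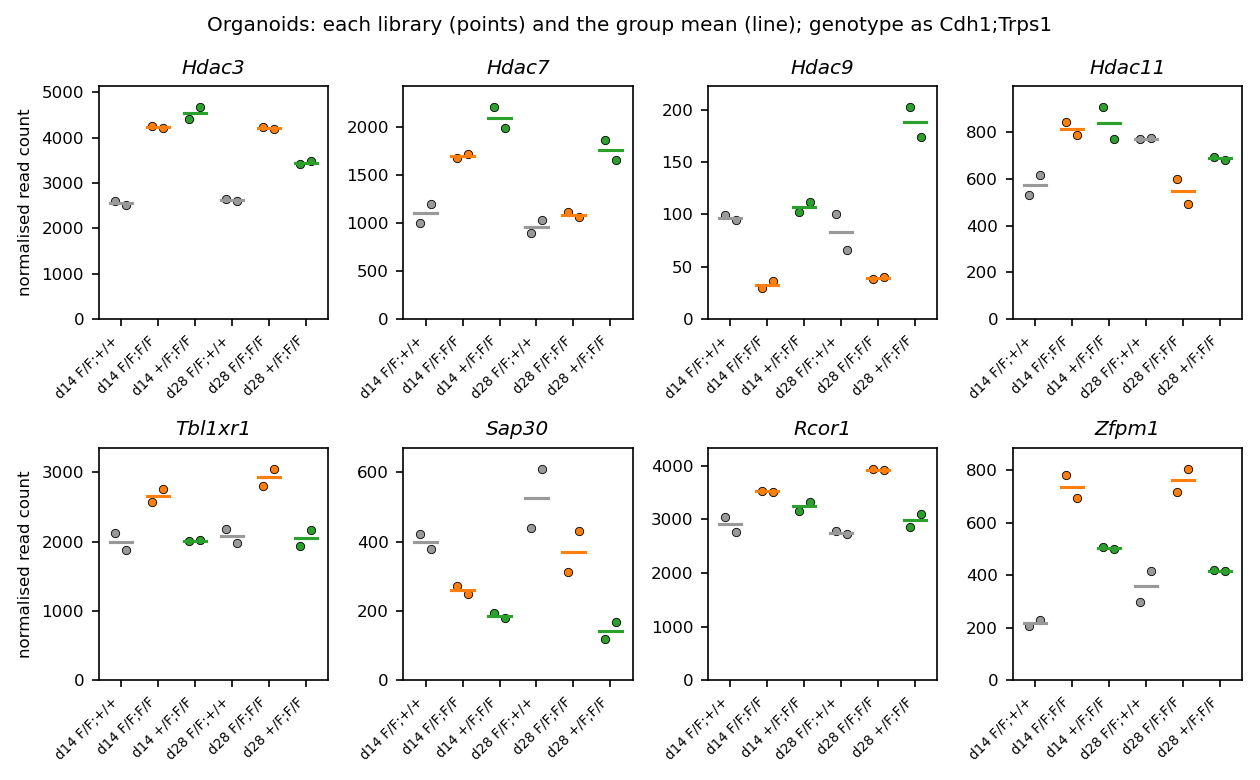
Normalized counts (linear axis from 0) of 8 members in each organoid library by genotype and day; each point is 1 library, each group has 2, and lines are group means. Hdac3 lies between 3406 and 4671 in all Trps1F/F libraries and between 2515 and 2646 in the Trps1+/+ libraries, while Hdac9 and Sap30 separate the Trps1F/F genotypes.

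The direct comparison of Cdh1F/F;Trps1F/F with Cdh1+/F;Trps1F/F over both days shares no library with the Trps1+/+ group. There 16 members were higher and 5 lower, against 30.6% and 30.4% of all genes, and the groups did not overlap for 13 of 41 (39.3% of all genes). Hdac9 was 3.9-fold lower in Cdh1F/F;Trps1F/F (log2 difference -1.96, SE 0.16, adjusted p = 2.03e-07), Sap30 was higher (log2 difference 0.93, SE 0.142, adjusted p = 8.46e-05) and Zfpm1 was higher (log2 difference 0.71, SE 0.0998, adjusted p = 4.14e-05). The groups did not overlap for these genes or for Tbl1xr1 (0.46, adjusted p = 3.68e-05) and Hdac4 (0.43, adjusted p = 3.01e-05). Hdac3 differed by 0.09 (adjusted p = 0.0978), with overlapping groups, and Hdac1, Hdac2 and Hdac8 by 0.31 (adjusted p = 0.00213), 0.08 (adjusted p = 0.346) and -0.01 (adjusted p = 0.912). Under quantile normalization the higher share of all called genes went from 50.1% to 62.3%, with a median of all genes of 0.12 against 0.02. Trps1 RNA was 1.49 higher in Cdh1F/F;Trps1F/F (limma adjusted p = 3.82e-07), so the genotypes differed in remaining Trps1 RNA as well as in Cdh1 label. The fibroblast sums of these genotypes, given above, did not overlap. The part of Trps1 RNA and of the fibroblast sums in these values was not tested.

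Between day 14 and day 28, averaged over genotypes, 14 members were higher and 11 lower (all genes: 22.5% and 25.8%), with differences from -0.36 (Hdac7) to 0.33 (Hdac2) and no member whose days did not overlap (all genes: 4.32%). This average pools opposite moves of the genotypes. Hdac5 and Hdac11, described below, rose from day 14 to day 28 in Trps1+/+ and fell in both Trps1F/F genotypes. It can also hide moves of a single genotype, such as that of Hdac9 in Cdh1+/F;Trps1F/F given above. The higher count fell to between 8 and 9 on leaving out any of 4 libraries: the second Trps1+/+ library of day 14, the second Cdh1F/F;Trps1F/F library of either day, or the second Cdh1+/F;Trps1F/F library of day 28. Whether the difference between Trps1F/F and Trps1+/+ in Cdh1F/F organoids (called the effect below) changed between days was tested as an interaction. It did for 9 members, 3 with a higher and 6 with a lower effect at day 28, against 8.23% and 9.71% of all genes. The higher count went to 0 without the first Trps1+/+ or first Trps1F/F library of day 14 or the second Trps1F/F library of day 28, and to 1 without the second Trps1F/F library of day 14 or the first Trps1+/+ library of day 28. The lower count went to 2 without either of the first 2 libraries named, and to 3 without the second library of either genotype at day 28.

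Hdac11 and Hdac5 changed direction between the days. Hdac11 had 531 and 616 in Trps1+/+ and 843 and 789 in Trps1F/F at day 14, then 769.8 and 777 and 599.8 and 494 at day 28. It thus lay above Trps1+/+ at day 14 (0.51) and below at day 28 (-0.51), and the effects differed by -1.02 (SE 0.165, adjusted p = 0.00207). The day 14 call of Hdac11 was lost without the first Trps1+/+ library (adjusted p = 0.0563). Hdac5 had 2206 and 2606 and 3268 and 2847 at day 14, then 2798 and 2781 and 2138 and 1797 at day 28. Its effects of 0.35 and -0.51 differed by -0.86 (SE 0.155, adjusted p = 0.00363). The day 14 effect of Hdac5 lost its call without the first library of either genotype (adjusted p = 0.238 and 0.229). These 2 differences held in all 13 alternatives, whereas the other 7 did not. Rcor2 was also lower at day 28, with 344 and 412 in Trps1+/+ and 235 and 256 in Trps1F/F (log2 difference -0.61, SE 0.137, adjusted p = 0.00301), as was Phf21a (log2 difference -0.49, SE 0.0907, adjusted p = 0.00087).

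**Figure D4:**
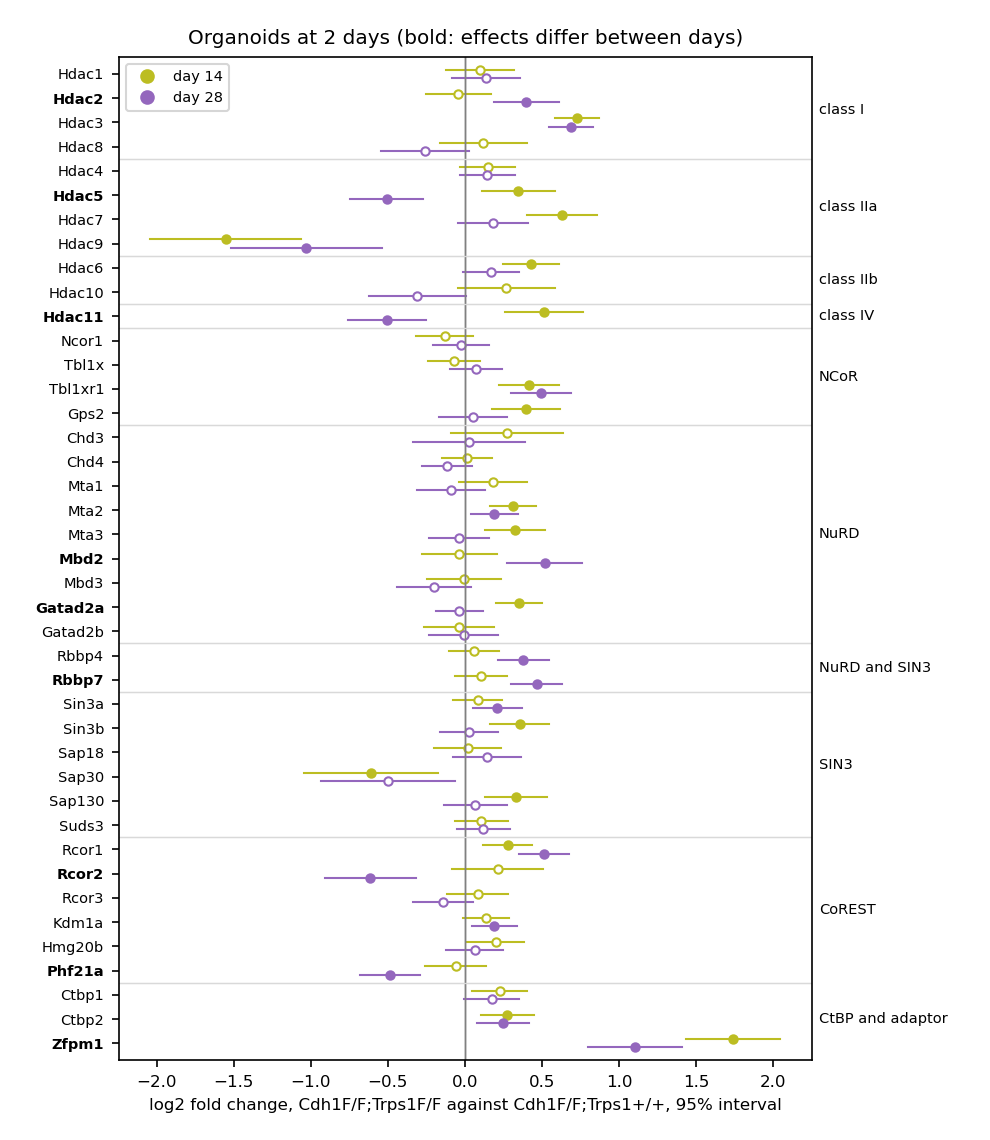
Log2 differences with 95% intervals of Cdh1F/F;Trps1F/F against Cdh1F/F;Trps1+/+ organoids at day 14 and day 28 for each member; names in bold have effects that differ between days at an adjusted p below 0.05. Hdac3 and Zfpm1 lie right of 0 at both days, and Hdac11 and Hdac5 cross from right to left.

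Of the related genes outside the set, whose counts are read against the all-gene shares of 14.5% higher and 17.9% lower at day 14 and 19.9% and 23.4% at day 28, none of 14 further corepressor subunits passed the test in Cdh1F/F;Trps1F/F at day 14 and 3 were lower at day 28, among them Chd5 at -1.28 and Zfpm2 at -1.76. Among 12 acetyltransferases, 2 were higher and 1 lower at day 14 and 2 higher and 2 lower at day 28. Among 7 sirtuins, 1 was higher at day 14 and 2 were lower at day 28.

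The tumor comparison asks how mammary tumors with floxed Cdh1 differed when Trps1 was floxed too. Over all mice, limma called none of the 40 members tested and no gene at all (0% of 15433), and 806 genes but no member had an unadjusted p below 0.05. By limma the members with the smallest p were Gps2 (0.38), Hdac9 (-1.30) and Sin3b (0.32), each with an adjusted p of 0.80. The class I enzymes differed by -0.53 (Hdac1), -0.21 (Hdac2), 0.34 (Hdac3) and -0.11 (Hdac8), with adjusted p of 0.80 or more. In simulated data of this design only 30% of 2-fold changes were recovered, so changes of that size may go undetected.

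Within the Trps1F/F tumors the spread was wide. Hdac11 ran from 49.5 to 948 normalized counts over the 8 Trps1F/F tumors, with a summed luminal marker level of 1806 to 114694. The subgroups named in the labels were therefore compared with the Trps1+/+ tumors, which all 3 comparisons share. Subgroup one had 5 of 40 members higher and 2 lower, against 8.95% and 6.87% of all genes, and the median of the members was -0.06 against 0.00 for all genes. The labels do not say what put a tumor in a subgroup, so a grouping by expression cannot be told apart from these differences. In 17 of the 40 members the mouse values of subgroup 1 and Trps1+/+ did not overlap, against 43.7% of all genes.

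Hdac3 in subgroup 1 had 2593, 3649, 2909 and 3118 normalized counts, against 1696, 1726 and 1703 in the Trps1+/+ tumors (log2 difference 0.84, SE 0.137, adjusted p = 0.00651). Every subgroup 1 tumor lay above every Trps1+/+ tumor. In subgroup 2 Hdac3 had 1758 and 1783 (0.05, adjusted p = 0.915), and in subgroup 3 1501 and 1431 (-0.22, adjusted p = 0.871). Hdac11 had 846, 948, 872 and 609.9 in subgroup 1 and 151, 112 and 101 in Trps1+/+, 6.94-fold higher (log2 difference 2.80, SE 0.533, adjusted p = 0.0113). It had 49.5 and 227 in subgroup 2 and 95.5 and 209.6 in subgroup 3, so that outside subgroup 1 the values overlapped those of Trps1+/+. These were the only 2 of the 7 calls that held in all 12 alternatives.

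The remaining calls in subgroup 1 were weaker. The NCoR subunit Gps2 had 760.1, 789, 898 and 847 against 512, 524 and 470 (log2 difference 0.68, SE 0.129, adjusted p = 0.011), with an adjusted p of 0.0504 without the Trps1+/+ mouse 18LCO128. Mta3 had 1163, 1326, 1627 and 1338 against 921, 822 and 868 (log2 difference 0.60, SE 0.146, adjusted p = 0.0286), and its call was lost without any mouse but 17LCO103 (adjusted p = 0.0525 to 0.106). Hdac10 had 483, 426, 391 and 540.3 against 319, 258 and 328 (log2 difference 0.60, SE 0.172, adjusted p = 0.0475). For all 3 genes the groups did not overlap, higher in subgroup 1. The 2 lower members were Mbd3 and Hdac2. Mbd3 had 1365, 1286, 1595 and 1503 against 2132, 2418 and 1897 (log2 difference -0.62, SE 0.133, adjusted p = 0.018), and Hdac2 had 1696, 1579, 1088 and 1384 against 2191, 3046 and 2083 (log2 difference -0.69, SE 0.196, adjusted p = 0.0462). Neither Hdac2 nor Hdac10 passed the test when any of the 6 mice in the comparison was left out (adjusted p = 0.068 to 0.167). Mbd3 was lost without 17LCO103, 18LCO003 or 18LCO114 (adjusted p = 0.0597 to 0.0749). The higher count fell to 3 without 18LCO003, 18LCO025, 18LCO046 or 18LCO114 and to 2 without 18LCO128. Hdac1 and Hdac8 differed by -0.82 (adjusted p = 0.0517) and 0.04 (adjusted p = 0.929), and Hdac9 by -2.30 (adjusted p = 0.0584).

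Luminal markers summed to 70049 to 114694 in subgroup 1 and 10022 to 30848 in Trps1+/+ tumors, with 5 of 8 markers higher, and macrophage markers to 17135 to 24727 against 39068 to 51657, with 2 of 6 lower. Cdh1 itself had 6909 to 13639 counts in subgroup 1 and 129 to 1599 in Trps1+/+ tumors (log2 difference 4.46, SE 1.09, limma adjusted p = 0.0289), against 331 to 817 in subgroup 2 and 88.7 to 1261 in subgroup 3. The only subgroup with called members was thus the one with high Cdh1 RNA, although both genotypes are labelled Cdh1F/F. It was also the largest, with 4 tumors from 3 mice against 2 tumors from 2 mice in each of the others. In those smaller subgroups limma called no gene at all. Leaving out the subgroup 1 tumors of mouse 18LCO025 left 2 tumors from 2 mice in subgroup 1. There limma called 904 genes higher and 654 lower than in Trps1+/+ tumors. The part of subgroup size and of Cdh1 RNA in the number of calls was not tested. The fibroblast sums of subgroup 1 and Trps1+/+ tumors overlapped, at 77173 to 617043 against 383709 to 1088720. The part of these differences in the values of Hdac3, Hdac11 and the other called members was not tested.

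In subgroups 2 and 3 limma called no member and no gene (0%). At an unadjusted p below 0.05 there were 4 members and 2074 genes in subgroup 2, and 3 members and 941 genes in subgroup 3. The smallest p in subgroup 2 belonged to Chd4 (0.55, adjusted p = 0.225), Rcor2 (1.10, adjusted p = 0.233) and Hdac8 (-0.61, adjusted p = 0.335), and in subgroup 3 to Chd3 (-1.54, adjusted p = 0.344), Zfpm1 (-0.97, adjusted p = 0.747) and Sin3b (0.58, adjusted p = 0.761). Chd3 had 1814 and 1360.2 in subgroup 3 against 5089.8, 4131 and 4508 in Trps1+/+. Hdac1 and Hdac2 differed by -0.66 (adjusted p = 0.343) and 0.02 (adjusted p = 0.976) in subgroup 2 and by 0.28 (adjusted p = 0.894) and 0.44 (adjusted p = 0.8287) in subgroup 3, where Hdac8 differed by 0.29 (adjusted p = 0.88). Hdac9 was high in single tumors, at 1183 in 1 subgroup 3 tumor and 492 in 1 Trps1+/+ tumor, against 35.4 to 73.4 in subgroup 1.

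**Figure D5:**
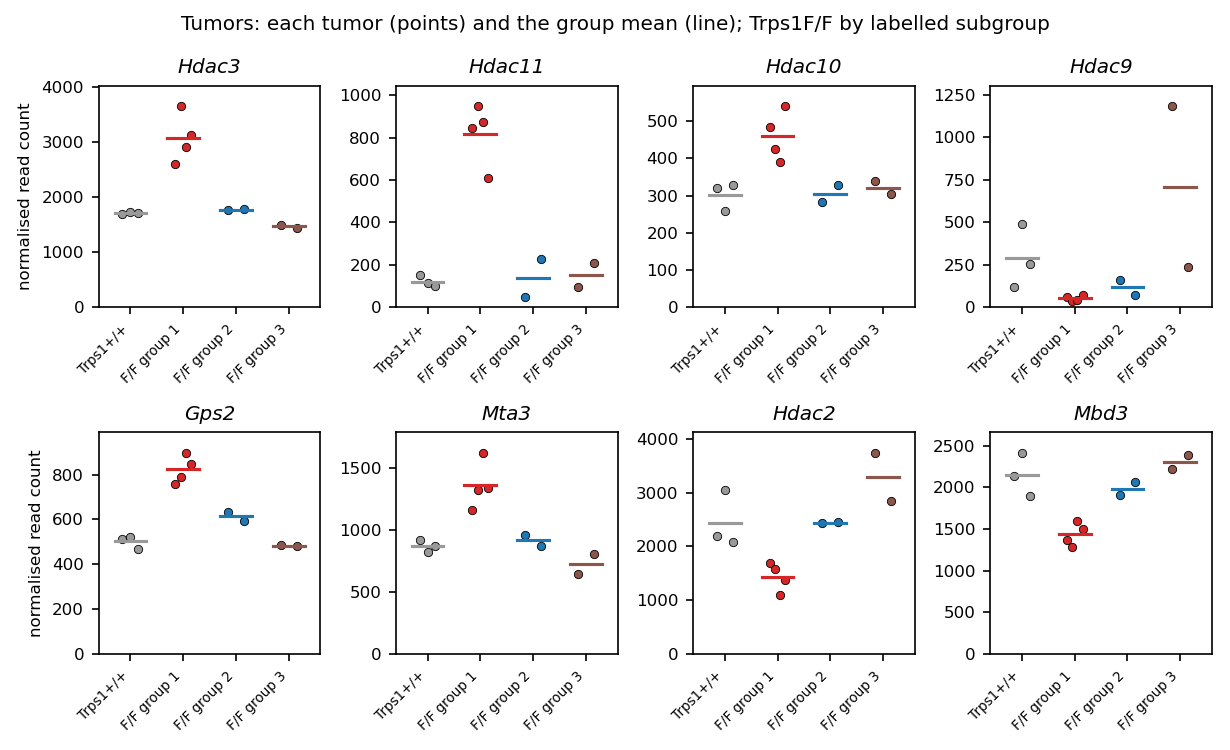
Normalized counts (linear axis from 0) of 8 members in each tumor, by Trps1+/+ and by Trps1F/F subgroup; each point is 1 tumor and each line a group mean. Hdac3 (2593 to 3649) and Hdac11 (610 to 948) are highest in subgroup 1, and Hdac9 spans 35.4 to 1183 over the Trps1F/F tumors.

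Across experiments Hdac3 was called higher with TSA, in all 4 organoid comparisons and in tumor subgroup 1, and it missed the threshold with sgTrps1, over all tumors and in subgroups 2 (0.05) and 3 (-0.22). Hdac11 was called higher with TSA, with sgTrps1, in both Trps1F/F genotypes at day 14 and in subgroup 1, and lower in Cdh1F/F;Trps1F/F at day 28. It was not called in Cdh1+/F;Trps1F/F at day 28, over all tumors or in subgroups 2 and 3. Zfpm1 was called higher with TSA and in 3 of the 4 organoid comparisons, and lower with sgTrps1, where the call was lost without the second sgScr library (adjusted p = 0.0554) or either sgTrps1 library (0.199 and 0.124). By limma no tumor comparison called Zfpm1, but the authors' deposited table called it higher in subgroup 1 (log2 difference 0.82). Its counts were 527 to 593 in subgroup 1 and 234 to 416 in Trps1+/+ tumors. They were 345 to 600 in subgroup 2 and 145 to 177 in subgroup 3. The 4 tables were normalized separately, so levels were not compared between them.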

How the data were processed

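RNA from the 33 samples was prepared with an AllPrep kit and a TruSeq RNA kit, per the labels' protocols. TopHat, HTSeq and GRCm38 are named in the submitters' processing notes, without versions. The authors deposited log2 values of normalized counts plus 1, 1 table per experiment. All values corresponded to whole reads (tolerance 0.01 reads or a share of 1e-05). A row without a gene name was dropped from the guide and organoid tables. Log2 fold changes and adjusted p-values of the authors' deposited comparison tables were used only to compare calls; the guide table runs in the opposite direction and was turned.

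Each table was fitted as a whole with limma 3.58.1 (R 4.3.3, variance trend), with Benjamini-Hochberg adjustment over all genes kept and a call at an adjusted p below 0.05. Genes needed a normalized count plus 1 of at least 10 in as many libraries as the smallest group (3 for TSA and tumors, 2 for guides and organoids). The 6 organoid groups shared a fit. Tumors of a mouse were averaged, within a subgroup where subgroups were compared; the mouse in subgroups 1 and 3 was counted in both. Replicate letters in 8 organoid columns with shared headers are only names. The fit was tested on simulated data. At a log2 change of 0.5 it recovered 95% (TSA), 90% (guide) and 66% (organoids, day 14) of changed genes, and 1% in either tumor comparison. False calls made up 1.5% (TSA), 1.6% (guide), 6.7% (organoids, day 14), 11.4% (all tumors, 4 false calls) and 0% (subgroup 1) of calls. The organoid and all-tumor shares exceeded the threshold of 0.05. Exon lengths and overlaps came from GENCODE M21 and promoters from RefSeq, with 34 members matched.

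The members and lists were chosen with earlier results of these data known. Every member could be named. Full statistics went to at most 8 members per direction with the largest called difference and to the class I enzymes, or to the 3 members with the smallest p where none was called. Alternatives were no filter, a pseudocount of 8, a shift to a common median, quantile normalization, no variance trend, a replicate block, fewer groups in the fit, tumors as separate samples, and each library or mouse left out.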

Additional observations from a re-analysis of the deposited data

Results flagged for a closer look

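A single tumor stood apart from its group for 5 members, by the gap of the highest or lowest tumor to the next relative to the group's range. Among the 8 Trps1F/F tumors, the subgroup 3 tumor of mouse 18LCO052 was the highest for Gatad2a (11.98 on the log2 scale), Rbbp7 (12.41) and Sin3b (11.59). Gatad2b was lowest (8.57) in 1 subgroup 1 tumor of mouse 18LCO025, and within subgroup 1 Hdac4 was highest (10.74) in another tumor of that mouse. Of the 80 groups of members examined, chance alone would set apart about 1 in 20.

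For 9 members the difference between Cdh1F/F;Trps1F/F and Cdh1F/F;Trps1+/+ organoids changed between days in a test of the interaction (limma, adjusted p below 0.05). The day 28 difference minus the day 14 difference was -1.02 for Hdac11, -0.86 for Hdac5, -0.83 for Rcor2, -0.64 for Zfpm1, -0.43 for Phf21a, -0.39 for Gatad2a, 0.36 for Rbbp7, 0.44 for Hdac2 and 0.55 for Mbd2. The fibroblast marker sums were 87001 to 94370 in Trps1+/+ and 20116 to 20866 in Trps1F/F at day 14, and 24422 to 36874 and 7844 to 8905 at day 28, and their part was not tested.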

How the results depend on the processing

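Of 37 members called with TSA, 36 were called in all 12 alternatives; Rbbp4 reversed to 0.028 under quantile normalization. The corresponding numbers were 20 of 30 with sgTrps1, 7 of 17 and 11 of 17 in Cdh1F/F;Trps1F/F at day 14 and day 28, 9 of 12 and 9 of 20 in Cdh1+/F;Trps1F/F, 20 of 21 between the Trps1F/F genotypes, 15 of 25 between days, 2 of 9 for the interaction and 2 of 7 in subgroup 1. The lower count at day 14 in Cdh1F/F;Trps1F/F was 1 without the filter, with quantile normalization and without the variance trend. The higher count at day 28 was 7 with only the 2 groups in the fit. The higher count of the interaction was 0 without the filter or the trend and 1 with a median shift or quantile normalization. In subgroup 1 the lower count was 1 without the filter or the trend and 4 with each tumor as its own sample. The causes of these changes were not tested.

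With 1 library or mouse left out, counts ran from 12 to 19 higher and 9 to 14 lower (guide), 7 to 14 higher and 1 lower (Cdh1F/F;Trps1F/F, day 14), 7 to 9 and 5 to 7 (day 28), 4 to 7 and 6 to 11 (Cdh1+/F;Trps1F/F, day 28), 8 to 14 higher (days), 0 to 4 and 2 to 8 (interaction), and 2 to 4 and 0 to 3 (subgroup 1). Where this left a single library in a group, it was assumed to vary like the others. A replicate block gave 14 higher and 24 lower members with TSA and 16 and 14 with sgTrps1. Deviations of same-numbered libraries correlated at -0.084, -0.0034 and -0.063 with TSA and at -0.19 in the guide table, so the numbers were not taken as pairs; the crossed pairing, added after the data were seen, gave 20 and 14. No paired analysis was possible because organoid headers are shared and tumor numbers only name samples.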

Other observations

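In the guide comparison, 34.6% of all genes were higher and 32.4% lower, and genes outside the set that write, read or remove acetyl marks are given beside these shares. Of 12 acetyltransferases tested, 3 were higher and 4 lower with sgTrps1, with Hat1, which acetylates newly made histones, at 0.90 and Kat2a, the catalytic subunit of the SAGA complex, at -0.82. Of 7 sirtuins 4 were higher and none lower, with Sirt3, the mitochondrial deacetylase, at 0.69. The bromodomain readers Brd2 and Brd3 differed by -0.35 and -0.18, each a lower call. With TSA, Brd2 was higher by 1.17 while Brd3 was lower at -1.02. Of 13 further corepressor subunits, 6 were higher and 3 lower with sgTrps1, with the SIN3-associated Arid4b and Arid4a at 0.56 and 0.47.

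In Cdh1+/F;Trps1F/F organoids at day 28, 1 of 14 further corepressor subunits was higher and 5 were lower, among them Ing1 at -0.56, against 28.7% and 24.6% of all genes. Among 12 acetyltransferases 1 was higher and 4 lower there, and among 7 sirtuins 1 was higher and 3 lower. In tumor subgroup 1, no further corepressor subunit passed the test, and Sirt7 (0.64) and Ncoa1 (1.16) were higher, against 8.95% of all genes higher and 6.87% lower.

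The authors' deposited tables, made from the same reads, gave the same call as the fit used here for 38 of 40 members with TSA, 34 of 41 with sgTrps1, 40 of 41 and 37 of 41 in Cdh1F/F;Trps1F/F organoids at day 14 and day 28, and 35, 38 and 39 of 40 in tumor subgroups 1, 2 and 3. No member was called in opposite directions. In subgroup 1 the authors' deposited table called 8 members higher and 4 lower, in subgroup 2 it called 2 higher, and in subgroup 3 it called 1 lower.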
